A study of Mus musculus with 244 samples.

Results

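The 10 genes described here are secreted and membrane-bound metalloproteinases and their inhibitors: the matrix metalloproteinase genes Mmp8, Mmp9, Mmp12, Mmp13, Mmp14 and Mmp19, the genes Adam8 and Adam17 of the ADAM family (a disintegrin and metalloproteinase), and the inhibitor genes Timp1 and Timp2. They were taken by gene symbol from a table of 24475 genes, and all 10 were found in it. The cells were macrophages of the mouse aortic arch, sorted for CD45, CD11b and F4/80, captured one by one on a C1 microfluidic chip and sequenced as full-length cDNA. Baseline cells came from arches of Apoe-/- mice, which lack the apolipoprotein that clears remnant lipoproteins, after 16 weeks of a high fat diet. Regression cells came from arches of the same kind of donor, Apoe-/- on 16 weeks of high fat diet, that had been transplanted into wild-type recipients on chow and taken 3 days later. Regression thus differs from baseline by the transplant operation, the recipient, the diet and the Apoe genotype of recipient cells, which cannot be told apart. A regression arch can hold cells of donor and of recipient. After averaging of 3 pairs of near-identical baseline libraries and a minimum of 1000 genes per cell, 125 baseline and 113 regression cells were left. The labels name no animal, so each condition was counted as 1 sample, and no difference between the conditions was tested.

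Matrix metalloproteinases are zinc enzymes made as inactive precursors that cut collagen, elastin and other matrix proteins once the propeptide is removed. ADAM proteases sit in the cell membrane and release the outer parts of other membrane proteins, among them the precursor of tumour necrosis factor. TIMPs are small secreted proteins that block the active site of matrix metalloproteinases. The balance of proteases and TIMPs in macrophages is studied in atherosclerosis because matrix loss can weaken the fibrous cap of a plaque.

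Macrophage markers were counted first. The 8 markers include Ptprc, Itgam and Adgre1, the genes of the 3 proteins the cells were sorted for. A count of 3 or more is thus not independent of the sort and does not test macrophage identity. In regression 4 of the 8 had a higher and 4 a lower mean level, with Itgam higher and Adgre1 lower. Of 8 macrophage markers, 3 or more were found in 124 of 125 cells at baseline and in 113 of 113 in regression, counting a gene as listed in a cell at an RPKM of 1 or more; RPKM is reads per kilobase of transcript per 1000000 mapped reads. Apoe itself was listed in 9 of 125 baseline cells and in 112 of 113 regression cells, with mean log2(RPKM + 1) of 0.30 and 11.86. The donors lack Apoe and the wild-type recipients carry it, so Apoe in a regression cell goes with the recipient genotype. The origin of single cells was not tested further. The library numbers in the labels run through 5 stretches of 1 condition each: regression 1-20 (20 cells), baseline 21-92 (69), regression 93-111 (18), baseline 112-167 (56) and regression 168-244 (75). The labels do not say what a stretch stands for, and values are given by stretch because the stretches of 1 condition differed from each other. The median number of genes listed per cell was 2491 at baseline and 2360 in regression, and it was lowest, at 1892.5, in regression 93-111.

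Promoters of 8 of the 10 genes were found in the RefSeq table of build GRCm38.p6, and the 250 bases before a start are printed for the 4 genes that show how the set differs in sequence. Capitals mark matches, on either strand, to the AP-1 motif TGANTCA, the TATA box TATAAA or the GC box GGGCGG, which 6.75%, 12.4% and 32.7% of 32851 promoter windows of the same length hold. The windows of Mmp12 (chr9:7347124-7347373, plus strand, the second of its starts), Mmp13 (chr9:7272264-7272513, plus), Mmp14 (chr14:54431348-54431597, plus) and Timp2 (chr11:118355412-118355661, minus) read, from 5′ to 3′:
Mmp12: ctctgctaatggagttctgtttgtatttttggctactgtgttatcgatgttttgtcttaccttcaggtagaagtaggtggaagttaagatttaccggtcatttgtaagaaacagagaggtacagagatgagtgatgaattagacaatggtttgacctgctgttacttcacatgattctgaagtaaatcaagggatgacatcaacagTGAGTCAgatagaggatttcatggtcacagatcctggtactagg
Mmp13: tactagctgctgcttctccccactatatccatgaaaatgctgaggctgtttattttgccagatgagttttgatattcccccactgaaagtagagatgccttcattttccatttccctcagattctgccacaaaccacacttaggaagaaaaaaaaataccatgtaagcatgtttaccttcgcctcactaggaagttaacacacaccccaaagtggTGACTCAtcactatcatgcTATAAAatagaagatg
Mmp14: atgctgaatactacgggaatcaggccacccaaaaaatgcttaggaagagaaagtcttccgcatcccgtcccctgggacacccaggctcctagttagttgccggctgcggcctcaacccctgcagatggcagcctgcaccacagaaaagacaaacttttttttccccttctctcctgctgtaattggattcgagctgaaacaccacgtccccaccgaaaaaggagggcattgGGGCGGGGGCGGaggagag
Timp2: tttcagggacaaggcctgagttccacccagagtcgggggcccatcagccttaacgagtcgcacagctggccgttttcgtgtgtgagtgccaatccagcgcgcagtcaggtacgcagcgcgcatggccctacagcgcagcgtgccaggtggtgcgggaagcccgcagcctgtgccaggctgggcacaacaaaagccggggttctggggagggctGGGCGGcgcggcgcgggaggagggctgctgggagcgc
The Mmp12 window holds 1 AP-1 match, 44 bases before the start, in 39.6% G and C. Mmp13, a neighbour of Mmp12 and Mmp8 on chromosome 9, has an AP-1 match 35 bases and a TATA box 16 bases before its start, in 40.4% G and C. The windows of Mmp14 and Timp2 are richer in G and C, at 55.2% and 68%, with 2 GC boxes in Mmp14 and 1 in Timp2. The first Mmp12 window and that of Mmp8 hold none of these letters, and those of Adam8, Adam17 and Timp1 hold 1 GC box each. Starts are those of RefSeq. The printed windows of Mmp12 and Timp2 lie within the gene spans given below, which come from the mm10 annotation. A match is a description of the letters and not a measured binding site.

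Mmp12, the macrophage elastase, was the member with the lower mean in regression by the widest margin. Levels are given as log2(RPKM + 1), averaged over the cells of a condition with the SD over cells. At baseline Mmp12 (chr9:7344381-7369499) was listed in 57 of 125 cells (45.6%, exact 95% binomial interval 36.7% to 54.7%). Its RPKM there ran from 0 to 8327 with a median of 0.34, and 59 of 125 cells were at 0. In regression it was listed in 13 of 113 cells (11.5%, interval 6.27% to 18.9%), from 0 to 6965 with a median of 0. Both conditions thus hold cells without it and cells near the top of the range, and their ranges overlap. The mean level was 2.72 ± 3.79 (SD, n = 125 cells) in baseline and 0.90 ± 2.76 (n = 113) in regression cells, which differ by -1.82. By stretch, Mmp12 was listed in 44.9% of cells of baseline 21-92 and 46.4% of baseline 112-167, against 1 of 20, 4 of 18 and 8 of 75 cells of the regression stretches. The baseline stretches were less alike at 10 RPKM or more, with 16 of 69 and 23 of 56 cells. In baseline 21-92, 15 of the 31 listing cells lay from 1 to below 10 RPKM. Every kept cell with a library number from 50 to 75 had Mmp12 above 0, among them cell 69 at 8327 RPKM. The 3 near-identical pairs of libraries lie in the same run. Why values above 0 gathered by library number was not tested. The regression stretches had 1 of 20, 2 of 18 and 7 of 75 cells at 10 RPKM or more, and the conditions 39 of 125 and 10 of 113. In each of the 6 pairings of a regression with a baseline stretch the regression mean was lower, by a difference between -2.47 and -1.19. Among the cells that did list Mmp12 the level was not lower in regression: their median was 68.1 RPKM at baseline and 420.6 in regression, and 25 of 57 against 7 of 13 reached 100 RPKM. The mean RPKM over all cells was 280 at baseline and 171 in regression, a log2 ratio of -0.71. The difference lay in how many cells listed the gene, and on the scale of mean RPKM it was smaller.

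**Figure D1:**
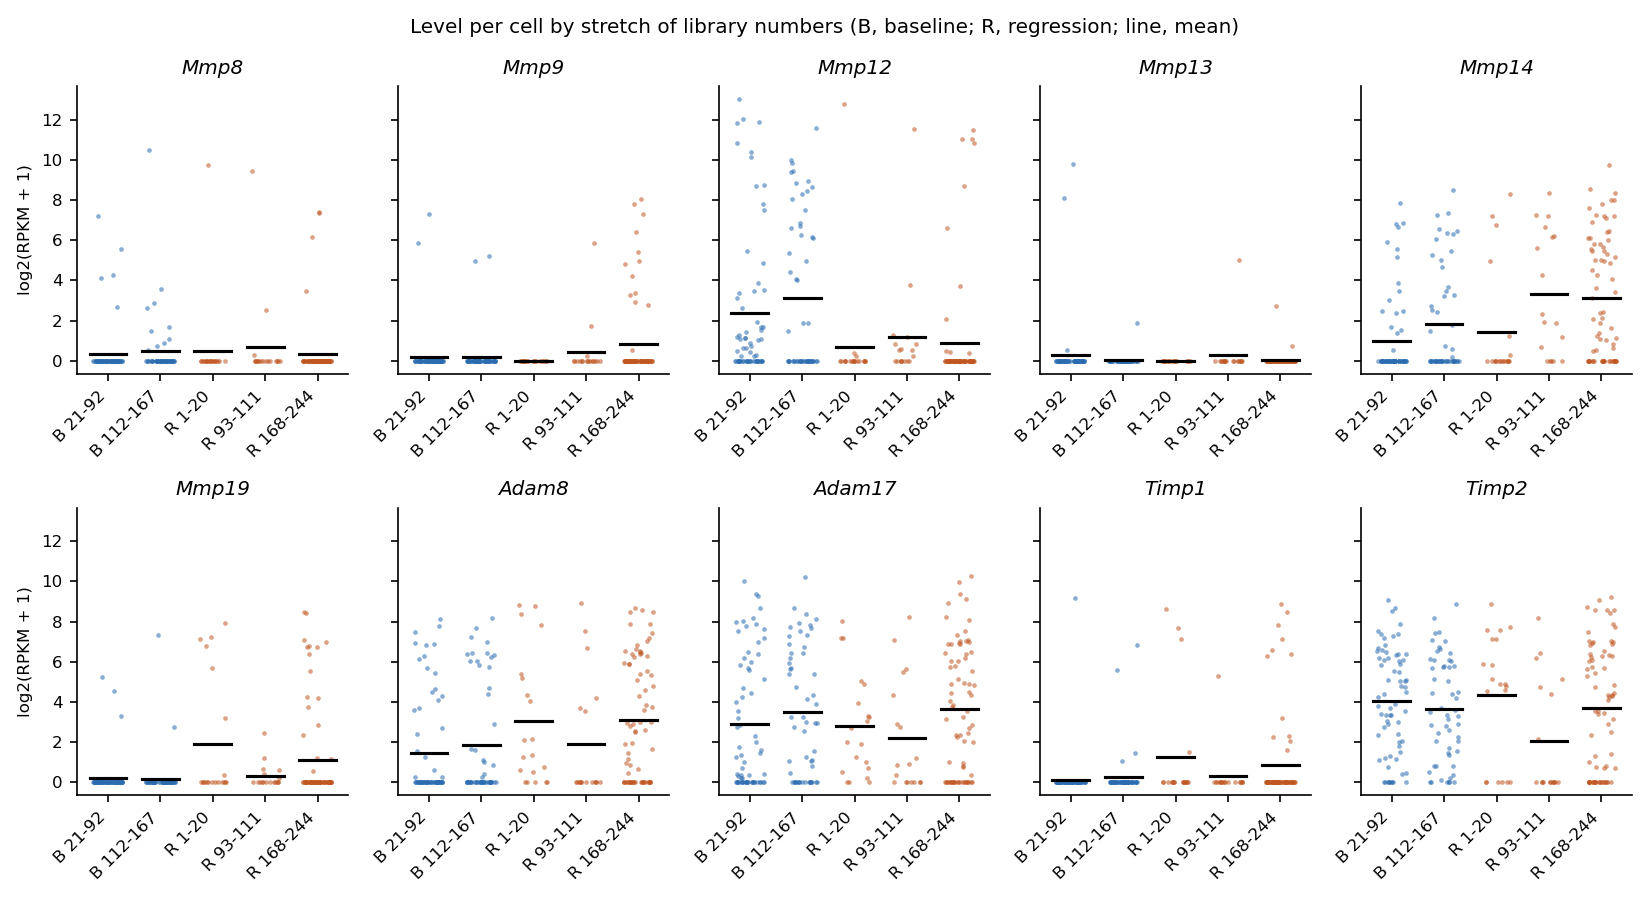
Level of each gene, as log2(RPKM + 1) on the vertical axis, in every cell, for the 5 library-number stretches on the horizontal axis; each point is a cell and each line the mean of a stretch. Mmp12 has many high cells in both baseline stretches and few in the 3 regression stretches, while Mmp14, Adam8 and Mmp19 have more high cells in regression over all cells, though Mmp14 is low in regression 1-20 and Mmp19 stays under 5 RPKM in regression 93-111.

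Mmp14, the membrane-type enzyme MT1-MMP that cuts collagen at the cell surface and activates pro-MMP2, had the higher mean in regression. It (chr14:54431612-54445364) was listed in 37 of 125 cells at baseline (29.6%, interval 21.8% to 38.4%) against 63 of 113 in regression (55.8%, interval 46.1% to 65.1%). Its RPKM ran from 0 to 365 at baseline and from 0 to 867 in regression, so the conditions overlap, and cells that listed it had medians of 24.7 and 43.6. The mean level was 1.35 ± 2.34 at baseline and 2.84 ± 3.05 in regression, which is a difference of 1.49. The stretches of regression were not alike: Mmp14 was listed in 12 of 18 cells of regression 93-111 and 46 of 75 of regression 168-244, but in 5 of 20 of regression 1-20, which lay between the baseline stretches (16 of 69 and 21 of 56). Of the 6 pairings 5 were positive and 1 negative, from -0.37 to 2.34. Without regression 168-244 the difference was 0.98.

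Mmp19 (chr10:128790910-128800824), a soluble enzyme of basement membrane and matrix proteins, was rare at baseline and more often listed in regression. It was listed in 5 of 125 cells at baseline (4.00%, interval 1.31% to 9.09%) against 24 of 113 in regression (21.2%, interval 14.1% to 29.9%), with highest values of 162 and 359 RPKM. The mean level was 0.19 ± 0.97 at baseline and 1.13 ± 2.38 in regression, which is a difference of 0.94, positive in all 6 pairings (0.12 to 1.73). The regression stretches listed it in 6 of 20, 2 of 18 and 16 of 75 cells, and in regression 93-111 its highest value was 4.52 RPKM. Exons of Mmp19 overlap those of Tmem198b on the other strand. Tmem198b was listed in 24 baseline and 26 regression cells, and reads of the pair cannot be told apart if the counting ignored strand; Adam17 and Iah1 overlap in the same way. Use of strand is not stated in the labels.

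The gelatinase and the soluble collagenases were found in few cells. Mmp9 (chr2:164940780-164955850), gelatinase B, was listed in 4 of 125 cells at baseline (3.20%, interval 0.88% to 7.99%) against 14 of 113 in regression (12.4%, interval 6.94% to 19.9%), with mean levels of 0.19 ± 1.04 and 0.62 ± 1.76 and highest values of 155 and 268 RPKM. Of those 14 cells 12 lay in regression 168-244 and 2 in regression 93-111; regression 1-20 had 0 of 20, where the limit of 3 counts allows a share of up to 15% and the exact upper bound is 16.8%. The difference was 0.43, and 0.02 without regression 168-244. Mmp8 (chr9:7558456-7568485), the neutrophil collagenase, was listed in 12 of 125 (9.60%) and 7 of 113 (6.19%) cells, and a single baseline cell at 1455 RPKM held 84.8% of the baseline sum. That cell has library number 123, and every cell from 115 to 120 had a low Mmp8 level above 0, between 0.53 and 2.65. This gathering by library number was not tested. The mean levels of Mmp8 were 0.40 ± 1.42 and 0.41 ± 1.72, which is a difference of 0.01. Mmp13 (chr9:7272514-7283331), collagenase 3, was listed in 3 baseline and 2 regression cells, too few for a statement about the conditions.

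Of the ADAM genes, Adam8, a protease and adhesion protein of myeloid cells, was listed more often in regression, and Adam17, the sheddase of the tumour necrosis factor precursor, had shares whose intervals overlap. Adam8 (chr7:139978932-139992562) was listed in 40 of 125 cells at baseline (32.0%, interval 23.9% to 40.9%) against 63 of 113 in regression (55.8%, interval 46.1% to 65.1%), with highest values of 292 and 486 RPKM and overlapping ranges. Its mean level was 1.65 ± 2.65 and 2.92 ± 3.06, which is a difference of 1.27, and all 6 pairings were positive (0.05 to 1.64). The share was 12 of 20 in regression 1-20 and 45 of 75 in regression 168-244, but 6 of 18 in regression 93-111, close to baseline (20 of 69 and 20 of 56). Without regression 168-244 the difference was 0.88. Adam17 (chr12:21323509-21373632) was listed in 73 of 125 (58.4%, interval 49.2% to 67.1%) and 70 of 113 (61.9%, interval 52.3% to 70.9%) cells at mean levels of 3.15 ± 3.23 and 3.25 ± 3.03. Its difference of 0.10 turned to -0.62 without regression 168-244, and its pairings ran from -1.26 to 0.74, so no order of the conditions was seen.

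The inhibitors went in opposite ways in their shares. Timp2 (chr11:118301069-118355740), the TIMP that binds MT1-MMP and pro-MMP2, was the most widely listed member at baseline: 100 of 125 cells at baseline (80.0%, interval 71.9% to 86.6%) against 70 of 113 in regression (61.9%, interval 52.3% to 70.9%). Its mean level was 3.85 ± 2.61 and 3.55 ± 3.16, which is a difference of -0.30 with 3 pairings positive and 3 negative. The shares differed through cells below 10 RPKM: 33 baseline but 10 regression cells lay from 1 to below 10 RPKM, while 67 baseline (53.6%) and 60 regression cells (53.1%) had 10 or more. By stretch, Timp2 was listed in 57 of 69 and 43 of 56 baseline cells and in 14 of 20, 7 of 18 and 49 of 75 regression cells. Timp1 (chrX:20870166-20874735), an inducible TIMP that binds pro-MMP9, was listed in 5 of 125 cells at baseline (4.00%, interval 1.31% to 9.09%) against 17 of 113 in regression (15.0%, interval 9.01% to 23.0%), at means of 0.19 ± 1.14 and 0.82 ± 2.22. Its difference of 0.63 was positive in all 6 pairings (0.03 to 1.11), with 1 of 69 and 4 of 56 baseline against 4 of 20, 1 of 18 and 12 of 75 regression cells.

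**Figure D2:**
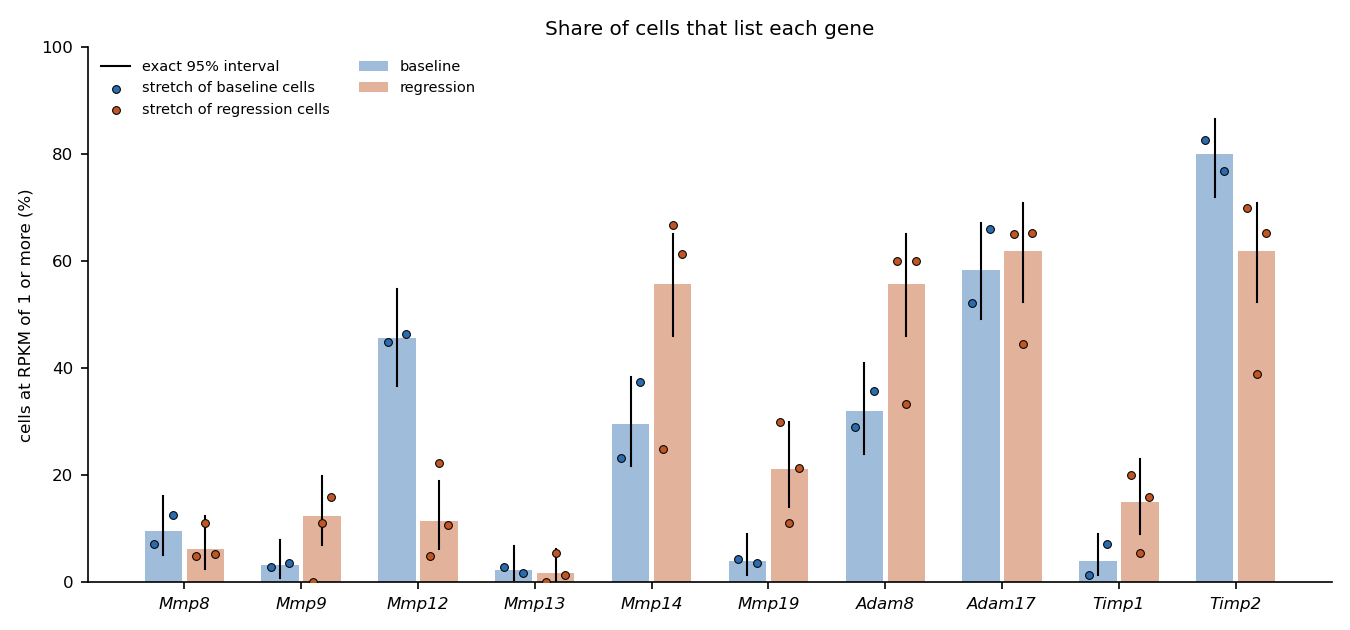
Percent of cells that list each gene at an RPKM of 1 or more, by condition; bars are the share over all cells of a condition, lines the exact 95% binomial interval for counting error, and points the stretches. Mmp12 and Timp2 have higher shares at baseline, and Mmp14, Adam8, Mmp19, Mmp9 and Timp1 in regression.

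Over the 10 members, 7 had a higher and 3 a lower mean in regression, with a median difference of 0.27. Of all 9299 genes that passed a filter of 5% of cells, 4390 were higher and 4909 lower. Mmp13 did not pass it, and of the 9 members that did, 7 were higher and 2 lower. A mean log2 difference of 1 or more was met upward by 2 members, Mmp14 and Adam8, and downward by 1, Mmp12; of the 9299 genes found in 5% or more of cells of either condition, 2.43% lay 1 or more higher and 3.17% lay 1 or more lower, and their median was -0.02. All 3 regression stretch means lay above both baseline stretch means for 3 members, Mmp19, Adam8 and Timp1, where 9.56% of genes do, and below both for 1 member, Mmp12, where 16.4% do. With 10 members these counts are a description. By mean level at baseline the order was Timp2, Adam17, Mmp12, Adam8, Mmp14, Mmp8, then Timp1, Mmp9 and Mmp19 close together, and Mmp13 last; in regression it was Timp2, Adam17, Adam8, Mmp14, Mmp19, Mmp12, Timp1, Mmp9, Mmp8 and Mmp13. The gap between neighbours in either order was smaller than the SD over cells of the higher one, so no neighbours stood apart beyond their spread.

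**Figure D3:**
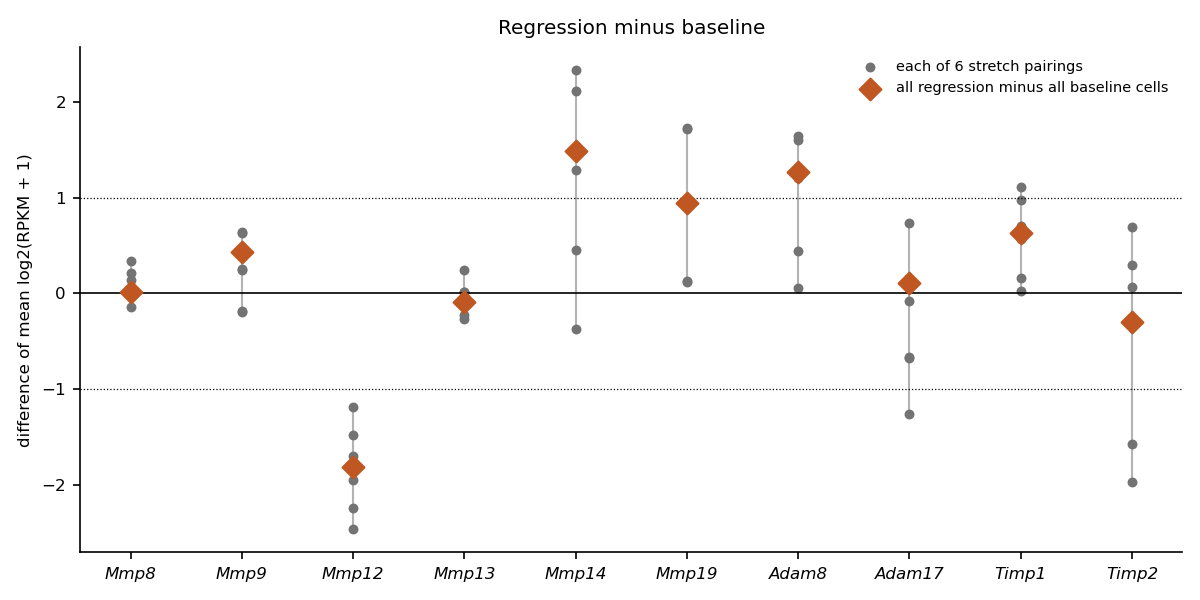
Difference in mean log2(RPKM + 1), regression minus baseline, for each gene; diamonds are the difference over all cells, points the 6 pairings of a regression with a baseline stretch, and dotted lines mark 1 and -1. Mmp12 lies at -1.82 with all pairings below 0, and Mmp14 at 1.49 and Adam8 at 1.27 lie above 1, with 1 pairing of Mmp14 below 0.

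Proteases and TIMPs were then counted in the same cells. A protease together with a TIMP was listed in 93 of 125 cells at baseline (74.4%, interval 65.8% to 81.8%) against 70 of 113 in regression (61.9%, interval 52.3% to 70.9%). Cells with a protease and no TIMP numbered 17 (13.6%, interval 8.13% to 20.9%) and 34 (30.1%, interval 21.8% to 39.4%). A TIMP alone was listed in 8 and 7 cells, and neither in 7 and 2. The 8 proteases include Adam8 and Adam17, and a TIMP beside them is not read as inhibition. Counting the 6 MMP genes alone, 67 baseline (53.6%) and 54 regression cells (47.8%) listed an MMP with a TIMP. An MMP without a TIMP was listed in 14 (11.2%) and 24 (21.2%). Protease-only cells made up 10 of 18 cells (55.6%) in regression 93-111, the stretch with the fewest genes per cell, against 20.0% of regression 1-20, 26.7% of regression 168-244, and 13.0% and 14.3% of the baseline stretches. In regression the protease-only cells listed a median of 2291.5 genes and the cells with both 2669. Regression 1-20 had 2268.5 and 2813, and regression 168-244 had 2335 and 2817.5. In regression 93-111 the order was reversed, with 1984 in protease-only cells and 1874 in cells with both. Baseline had 2491 and 2619. The part of the number of genes per cell in the result was not tested. With a minimum of 10 RPKM the shares with both were 46.4% at baseline and 49.6% in regression, the other way round, and the protease-only shares were 27.2% and 33.6%, so most of their contrast was not seen at that minimum.

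**Figure D4:**
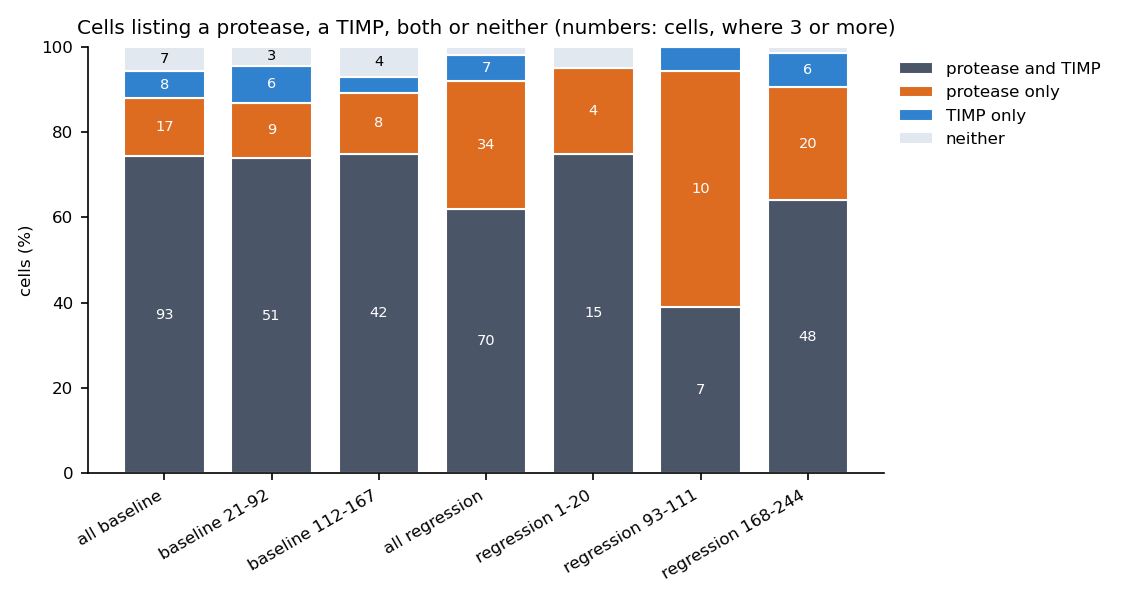
Percent of cells that list at least 1 of the 8 proteases with at least 1 TIMP, a protease only, a TIMP only or neither, as stacked bars for each condition and stretch. The protease-only class is 13.6% of baseline and 30.1% of regression cells, and 55.6% of regression 93-111, while at a minimum of 10 RPKM it is 27.2% and 33.6%.

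The mean number of the 8 proteases listed per cell was 1.85 ± 1.21 at baseline and 2.27 ± 1.30 in regression, with at most 5 in a cell. In summed RPKM, Mmp12 made up 66.2% of the protease sum at baseline and 43.7% in regression, while Adam8 went from 5.39% to 13.9%, Mmp14 from 3.81% to 12.8% and Mmp19 from 0.45% to 4.92%. Adam17 held 18.2% and 18.0%. The stretches did not keep this order: Mmp12 held 74.0% and 51.6% of the sum in the baseline stretches and 61.4%, 49.0% and 35.0% in the regression stretches, and 1 cell held 99.99% of its sum in regression 1-20 and 99.4% in regression 93-111. Mmp19 held 0.12% in regression 93-111, below 0.20% and 0.91% in the baseline stretches. Timp2 held 89.8% and 77.5% of the TIMP sum. The protease sum, which includes Adam8 and Adam17, exceeded the TIMP sum in 71.2% of baseline and 72.6% of regression cells. The difference of their log2(sum + 1) was 1.99 ± 3.46 and 2.48 ± 4.22, which overlap. For the MMP genes alone, the sum exceeded the TIMP sum in 46.4% of baseline and 51.3% of regression cells. The mean difference was then -0.08 and 0.35, each smaller than its SD over cells. By stretch that MMP share was 37.7% and 57.1% at baseline, and 30%, 72.2% and 52% in regression.

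Among the 45 pairs of members, Mmp12 and Mmp14 were found together more often than their shares multiply to in both conditions. At baseline 24 cells listed both (16.9 from the product), and Mmp14 was listed in 42.1% of cells with Mmp12 and 19.1% of cells without. In regression 12 of the 13 Mmp12 cells listed Mmp14 (92.3%, against 51.0% of cells without Mmp12; product 7.25). The association was not even: in baseline 21-92 it was 8 of 31 Mmp12 cells (product 7.2), in baseline 112-167 16 of 26 (product 9.75). Spearman's rho over cells of log2(RPKM + 1) was 0.27 at baseline and 0.30 in regression. At baseline the rho of Mmp12 and of Mmp14 with the number of genes per cell was 0.19 and 0.29, and the cells of a condition share their source.

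**Figure D5:**
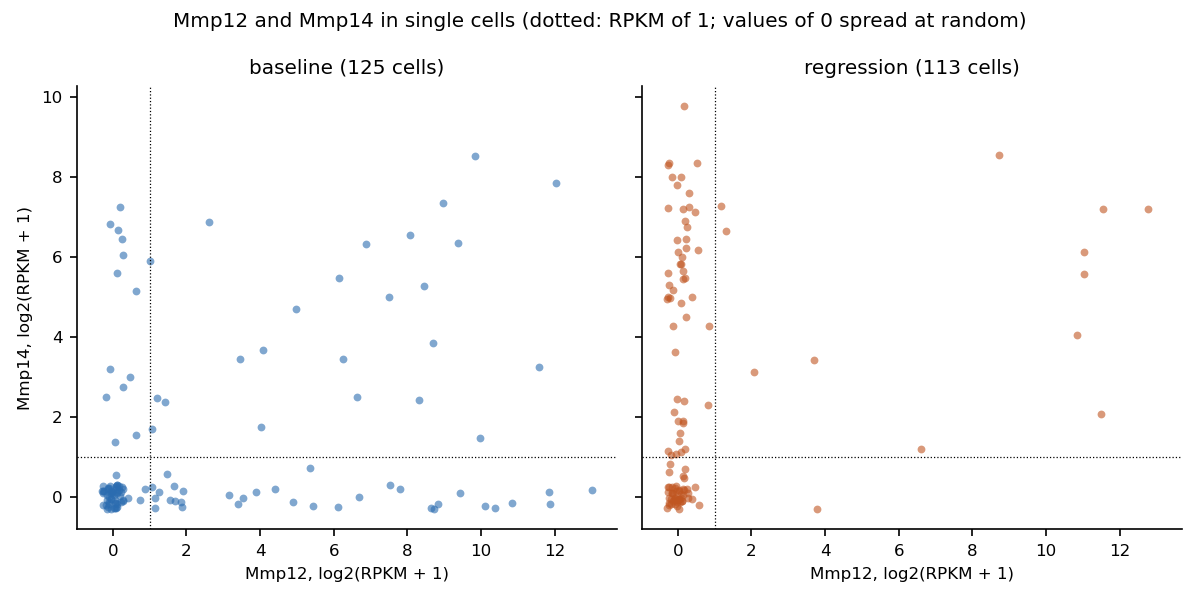
Mmp14 against Mmp12 level in each cell, both as log2(RPKM + 1), for baseline and regression; dotted lines mark an RPKM of 1 and values of 0 are spread at random. In regression 12 of the 13 cells that list Mmp12 also list Mmp14, against 24 of 57 at baseline.

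The partners in the activation of pro-MMP2, Mmp14 and Timp2, were listed together in 29 baseline cells (29.6 from the product) and 39 regression cells (39.03), at the product of their shares. Mmp12 and Timp2 shared 49 baseline cells (45.6 from the product) and 11 regression cells. Of the regression pairs with a product of at least 5 cells, 6 of 9 pairs of a protease and a TIMP and 8 of 12 pairs of proteases lay above the product. At baseline 4 of 5 and 6 of 8 did. The median ratio to the product was near 1, at 1.04 and 1.09 in regression and 1.06 and 1.135 at baseline. The share of all gene pairs that lie above their product was not computed, so these counts say nothing particular to the family. In regression 12 of the 14 Mmp9 cells listed Mmp14 (85.7%, against 51.5% of cells without Mmp9), 8 cells listed Mmp19 with Timp1 (product 3.61), and 15 of the 17 Timp1 cells listed Adam17 (product 10.5). Cells with Timp1 listed a median of 3048 genes against 2306 for cells without it in regression, so the number of genes per cell moves with such pairs, and its part in them was not tested.

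The genes with levels most like Mmp12 at baseline, by Spearman's rho over 125 cells among 3397 genes, were Nes (0.43), Cd9 (0.39) and Igf1 (0.36). Those most like Mmp14 in regression, over 113 cells among 3316 genes, were Cxcl16 (0.50), Ms4a7 (0.43) and Efhd2 (0.39). The rho of Mmp12 and of Mmp14 with the number of genes per cell was 0.19 and 0.21 in these cells. At baseline the likeness was close to that with the number of genes for Adam8, Adam17 and Mmp14. There Adam8 was most like Spp1 (0.43), Clec4d (0.40) and Ano6 (0.39) beside 0.38 with genes per cell. Adam17 was most like Abca1 (0.41), Sephs2 (0.38) and Pik3cg (0.38) beside 0.32, and Mmp14 most like Azin1 (0.38), Plgrkt (0.37) and Scoc (0.35) beside 0.29. In regression Adam8 was most like Ptk2b (0.44), Acsl4 (0.40) and Vamp4 (0.40) beside 0.33 with genes per cell. Adam17 was most like Rchy1 (0.39), Malat1 (0.35) and Rad1 (0.35) beside 0.32. Timp2 was most like Serpinb6a (0.37), Mknk2 (0.36) and Commd3 (0.36) beside 0.20.

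The rest of the protease system was read from lists of the same families. None of 17 other MMP genes was listed in 5% of the cells of a condition, and 10 of them were listed in no cell. Of 10 other ADAM genes 6 passed that filter, 3 higher and 3 lower and none by 1; Adam10, the other main sheddase, was listed in 96 baseline and 97 regression cells at 5.01 ± 3.16 and 5.75 ± 3.02, and Adam9 at 2.22 ± 2.72 and 2.87 ± 3.18. Of 10 ADAMTS genes, secreted proteases of proteoglycans, only Adamts10 passed, with a mean 0.03 higher. Among other protease inhibitors that passed, Cst3, the cysteine protease inhibitor cystatin C, was listed in every cell at 11.74 ± 1.21 and 11.00 ± 1.15, and Serpinb2 was listed in 0 baseline and 7 regression cells.

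Genes that activate or dock these enzymes passed the filter in 9 of 14 cases, 6 higher and 3 lower. Cd44, a hyaluronan receptor that holds MMP9 at the cell surface, had means of 4.97 ± 2.98 and 6.27 ± 2.80, and Plaur, the urokinase receptor, 3.65 ± 3.58 and 4.68 ± 3.77. These 2 were the list's members that lay 1 or more higher, and none lay 1 or more lower. Their stretches differed widely: the 6 pairings ran from -0.03 to 3.26 for Cd44 and from 0.02 to 4.23 for Plaur. Of 12 shed substrates of ADAM10 and ADAM17, 11 passed, 4 higher and 7 lower; Tnf, whose precursor ADAM17 cuts, was listed in 54 baseline and 21 regression cells at 2.54 ± 3.40 and 1.04 ± 2.28, and Tnfrsf1a at 2.09 ± 2.73 and 2.80 ± 2.80. The lists' median differences were -0.03 for the other ADAMs, 0.29 for activation and docking and -0.23 for the substrates, beside -0.02 over all genes that passed the filter.

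Markers of other myeloid cells differed between the conditions. At least 3 of 10 neutrophil markers were found in 5 of 125 cells at baseline and 14 of 113 in regression; the summed RPKM of the list ran from 0 to 17711 and from 0 to 29863, with medians of 2.91 and 11.3, and Ly6g, Camp, Ngp, Mpo and Elane were listed in no cell. In regression Mmp9 was listed in 3 of those 14 cells and in 11 of the other 99, but with 2 or more neutrophil markers as the rule it was listed in 11 of 44 cells (25%) and 3 of 69 others (4.35%). With S100a8 or S100a9 as the rule, Mmp9 was listed in 5 of 36 cells (13.9%) and 9 of 77 others (11.7%), so the contrast depended on the rule. Of the markers, Csf3r was listed in 53 and Cxcr2 in 47 of the 113 regression cells. Mmp19 was listed in 6 of the 14 regression cells with 3 or more neutrophil markers and in 18 of the other 99. At least 3 of 6 classical monocyte markers were listed in 26 of 125 (20.8%) and 44 of 113 (38.9%) cells, with 4 of the 6 markers higher and 2 lower in regression and summed RPKM from 0 to 3444 and from 0 to 15524. In regression Mmp19 was listed in 14 of the 44 cells with such markers (31.8%) and 10 of the other 69 (14.5%), and Adam8 in 30 of 44 (68.2%) and 33 of 69 (47.8%). Mmp14 went the other way, with 21 of 44 (47.7%) and 42 of 69 (60.9%). At baseline Mmp12 was listed in 6 of 26 such cells (23.1%) and 51 of 99 others (51.5%). The part of the cells with 2 neutrophil markers and of the monocyte-marker cells in the differences was not tested. With the cells that list 3 or more markers of a type other than macrophage or monocyte left out, 9 at baseline and 14 in regression, the differences were -1.88 for Mmp12, 1.47 for Mmp14, 0.83 for Mmp19, 1.23 for Adam8, 0.38 for Mmp9 and 0.73 for Timp1. In cells with at least 2000 genes they were -1.98, 1.25, 1.11, 1.48, 0.42 and 0.85 in the same order. Of 6 T cell, 5 B cell, 5 endothelial, 5 smooth muscle and 5 mast cell markers, no cell listed 3, and for fibroblasts and for dendritic cells 2 baseline cells each did, with 0 in regression. At least 3 of 6 nonclassical monocyte markers were listed in 40 baseline and 10 regression cells.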

How the data were processed

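Single macrophages were captured on a C1 chip, amplified with SMARTer Ultra Low chemistry and tagged with Nextera XT, per the labels' protocols, which in places speak of islet cells. The authors deposited 1 table of RPKM values for 24475 genes in 244 libraries, 1 cell each. The submitters' processing notes list CASAVA 1.8.2, FastQC and mm10. Which aligner, gene models and RPKM program were used was not given in the sources used here. Column sums ran from 512166 to 969695. The smallest step between low values, taken as 1 read (5727 genes with 1 transcript, tolerance 0.1 reads) gave a depth for 80 of 128 baseline and 55 of 116 regression libraries, with medians, in units of 1000000 reads, of 1.04 and 0.846; reads were not recovered, since a median of 62.7% and 64.4% of low values came out whole, and no count test was run.

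Libraries that correlated above 0.9 (3 baseline pairs) were averaged, and cells under the minimum of 1000 listed genes left out (3 regression cells). Levels are log2(RPKM + 1), which understates the change of low genes. Intervals are exact (Clopper-Pearson) and cover counting error only; zeros include transcripts missed by the amplification, and no doublets were called. With 1 sample per condition no p-value or SE was computed. Gene positions are from the mm10 annotation; promoters are RefSeq's. The 10 genes, the lists and the markers were chosen with earlier results of these data known. All 10 genes are named, and from each list the 2 with the largest difference past the 5% filter, plus any in a count of 5 or fewer; like genes are the 3 with the highest rho among genes in 25% of cells. Some genes that these rules name are not reported here. Alternatives were the pseudocount, rescaling, cell and gene filters, the minimum for listing, the near-identical libraries, mean RPKM, each stretch and the cells with markers of another type left out. Scripts used Python 3.11.15, numpy 2.4.6, pandas 2.3.3, scipy 1.17.1 and matplotlib 3.10.9, and were tested on simulated data.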

Additional observations from a re-analysis of the deposited data

How the results depend on the processing

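The differences of Mmp9, Mmp12, Mmp14, Mmp19, Adam8 and Timp1 kept their sign in all 13 alternatives, those of Mmp13, Timp2, Adam17 and Mmp8 in 12, 11, 9 and 6. The median difference of 0.27 became 0.52 with a pseudocount of 0.1 and 0.82 as a log2 ratio of mean RPKM, and fell to 0.12 with a pseudocount of 10 and 0.10 without regression 168-244. The count of members 1 or more higher, 2 in the report, was 0 with a pseudocount of 10, 5 as a log2 ratio of mean RPKM and 0 without regression 168-244. The count 1 or more lower, 1 in the report, was 0 with a pseudocount of 10. As a log2 ratio of mean RPKM it was again 1, but that member was Mmp13 at -4.77, where 1 cell held 76.0% of the baseline sum, and not Mmp12 at -0.71. The counts over all 9299 genes past the 5% filter moved too, from 226 higher and 295 lower in the report. They were 87 and 98 with a pseudocount of 10, and 1638 and 1725 as a log2 ratio of mean RPKM. Without regression 168-244 they were 324 and 443. The baseline share of cells with a protease and a TIMP was 85.6% where any RPKM above 0 counted and 46.4% at 10 RPKM, where the regression share was 49.6%. The baseline share of cells with a protease and no TIMP, an alternative chosen after seeing the data, was 27.2% at 10 RPKM, beside 33.6% in regression. Of all genes tested, 5.60% lay 1 or more higher and 7.37% lower with a filter of 25% of cells, and 0.92% and 1.21% with no filter. With any RPKM above 0, Mmp19 had a share of 19.2% at baseline and 32.7% in regression, but all 19 baseline cells and 7 of the 13 regression cells between 0 and 1 RPKM had values under 0.01, so counting them as cells with Mmp19 has no basis. With a minimum of 0.01 RPKM, chosen after seeing the data, its shares were 4.00% and 26.5%, and the baseline shares of cells with a protease and a TIMP and with a protease only were 84% and 7.20%. At the estimated depths 1 RPKM is about 1 read per kilobase, so a gene listed in few cells may be present below that level in others. No paired analysis was possible because each library number belongs to 1 cell and the conditions share none.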

Other observations

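Cells with several matrix metalloproteinases were uncommon. At least 3 of the 6 MMP genes were listed in 3 of 125 cells at baseline (2.40%, exact 95% binomial interval 0.50% to 6.85%) against 11 of 113 in regression (9.73%, interval 4.96% to 16.8%). These 11 cells were 0 of 20 in regression 1-20, 4 of 18 in regression 93-111 and 7 of 75 in regression 168-244. Timp1 and Timp2 were listed together in 4 baseline and 10 regression cells, and the latter listed a median of 3378 genes.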
